A study of Mus musculus with 15 samples.

Results

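Prdx2, Gsta4 and Duox1 are the redox and detoxification genes that could be followed by name in this study of mouse striatum 14 days after a bleed within the brain (intracerebral hemorrhage, ICH). They were taken by gene name, through the probes A_51_P147207 (Prdx2), A_51_P112223 (Gsta4) and A_51_P475138 (Duox1), and they are 3 of the 45 named genes among the 51669 probes tested. All 3 passed the filter on dim probes. The study used 15 one-colour Agilent arrays, 1 per sample, with RNA from the injured-side striatum of male mice. Sham mice (5 samples) and ICH mice (5 samples) received distilled water by gavage. BYHWD mice (5 samples) were given Buyang Huanwu decoction, a multi-herb preparation of traditional Chinese medicine, once daily for 14 days at 6.19 g/kg in distilled water, also by gavage. The study's title names this decoction as a treatment of ICH and asks for its expression signature, and the BYHWD mice are taken here as treated ICH mice on that ground. Every mouse was perfused with saline before the tissue was taken. Strain, age, the way the hemorrhage was made and any operation on the sham mice are not given in the sources used here. Whether each numbered sample came from its own mouse is not stated, so the p-values rest on the spread between samples, which may be technical.

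As background, cells near a hematoma meet heme and iron from lysed red cells, and these drive the formation of hydrogen peroxide and lipid peroxides. Duox1 encodes dual oxidase 1, a calcium-regulated membrane enzyme of the NADPH oxidase family that makes hydrogen peroxide and is best known from airway epithelium and thyroid. Prdx2 encodes peroxiredoxin 2, a thioredoxin-dependent enzyme that removes hydrogen peroxide and is abundant in red blood cells and in neurons. Gsta4 encodes an alpha-class glutathione transferase that joins glutathione to hydroxynonenal, a reactive aldehyde released by lipid peroxidation. The 3 genes thus stand for the making of peroxide, its removal and the clearance of its lipid products.

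None of the 3 genes passed the test in any comparison, where 5.03% of all tested probes passed between ICH and sham, 6.13% between BYHWD and ICH and 17.3% between BYHWD and sham. Duox1 came nearest. It was higher on all 5 BYHWD arrays than on all 5 ICH arrays, as were 4.44% of all tested probes. The difference was 1.39-fold on average, with a limma adjusted p of 0.0566. Prdx2 had its lowest mean in BYHWD and Gsta4 had closely similar means, and every interval of their differences included 0.

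The arrays lay on 3 slides. All 5 sham arrays shared slide 1 with a pair of ICH arrays (ICH 2 and ICH 3). The remaining ICH arrays (1, 4 and 5) made up slide 2. BYHWD filled slide 3, and that treatment and its slide cannot be told apart. Between 81.4% and 86.2% of spots per array were well above background. Precision is limited by the number of arrays. Levels are given as log2 of the background-corrected intensity minus the 75th percentile of the same array, which ranged from 420.5 to 540.2 intensity units on slide 1, from 261.3 to 303.1 on slide 2 and from 273.8 to 386.0 on slide 3. A level of 0 therefore means an intensity equal to that percentile. A probe differed past the test where its limma p, adjusted by Benjamini-Hochberg over the 51669 probes, was under 0.05.

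Each of the 3 probes was printed as 10 spots per array, which gives a direct measure of spot error. All 150 spots of each gene were well above background and none was saturated. Prdx2 was bright, with mean signals per array of 6553 to 16616 units. Gsta4 gave 237.1 to 835.9 units and Duox1 116.0 to 462.9 units, against local backgrounds of at most 23.5 units. For Prdx2 and Gsta4 the spots agreed more closely on every array of slide 1 than on any array of the other slides, and for Duox1 more closely than on slide 2, while 4 of the 5 arrays of slide 3 were as close. Their log2 SD was 0.018 to 0.032 for Prdx2 on slide 1, 0.058 to 0.0996 on slide 2 and 0.057 to 0.133 on slide 3. For Duox1 it was 0.058 to 0.10 on slide 1, 0.197 to 0.286 on slide 2 and 0.057 to 0.199 on slide 3. For the 50 probes with an accession the median spot SD was 0.040 to 0.050 on slide 1, 0.090 to 0.126 on slide 2 and 0.075 to 0.144 on slide 3. Even so, the spread between arrays of a group was 6.19 times the error of a spot mean for Prdx2, 10.7 times for Gsta4 and 4.85 times for Duox1. Pooled over all arrays, spot error was thus a small share of the difference between arrays. For Duox1 the error of a spot mean was 0.062 to 0.090 on slide 2. On slide 3 it was 0.019 to 0.063, beside a BYHWD SD between arrays of 0.10. The ratio was not computed for each slide.

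Duox1, the peroxide-making oxidase, showed the widest separation of groups. Its log2 levels were -0.87, -0.92, -0.88, -0.22 and -0.56 on sham 1 to sham 5. On ICH 1 to ICH 5 they were -1.23, -0.79, -0.77, -0.90 and -1.15, and on BYHWD 1 to BYHWD 5 they were -0.45, -0.40, -0.67, -0.48 and -0.46. Sham 4 was the highest array of all 15, and the 2 lowest were ICH 1 and ICH 5, both on slide 2. Sham overlapped both other groups, whereas BYHWD and ICH did not overlap, the lowest BYHWD array (-0.67) lying just above the highest ICH array (-0.77). The mean (± SD, n = 5) was -0.49 ± 0.10 for BYHWD, -0.69 ± 0.30 for sham and -0.97 ± 0.21 for ICH.

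**Figure D1:**
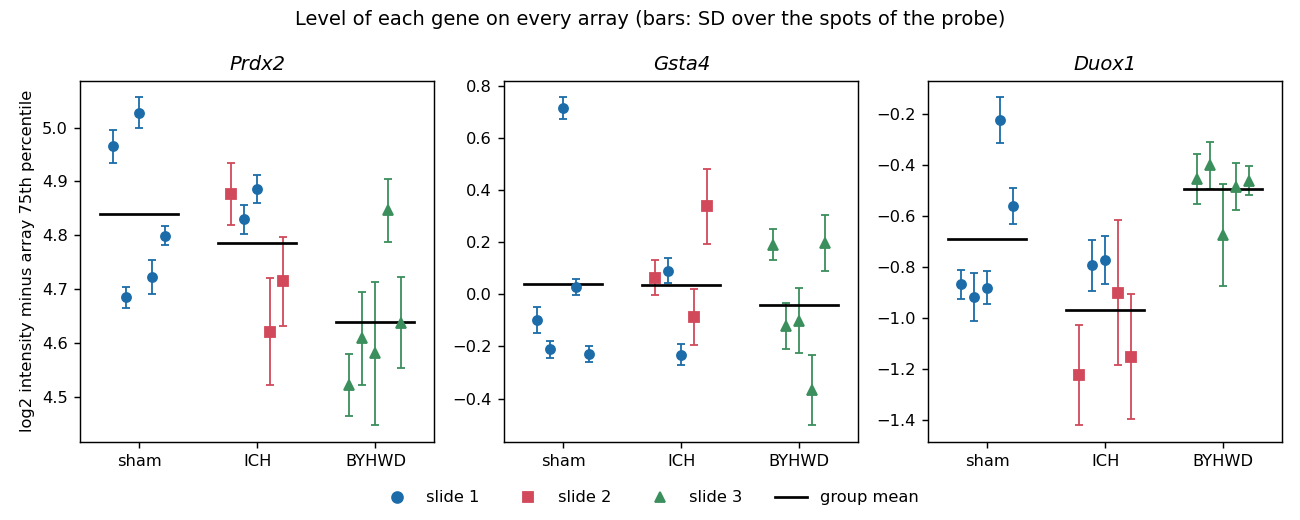
Log2 level (intensity minus the 75th percentile of the array) of Prdx2, Gsta4 and Duox1 on each of the 15 arrays, 5 per group. Points are means over the spots of a probe with the SD over those spots, colour and shape mark the slide and lines are group means. For Duox1 the 5 BYHWD arrays lie from -0.67 to -0.40 and the 5 ICH arrays from -1.23 to -0.77. For Gsta4, sham 3 stands at 0.71.

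Under decoction the Duox1 level was 0.47 ± 0.14 log2 units higher than in untreated hemorrhage (SE; 1.39-fold, 95% interval 1.13 to 1.71; limma adjusted p = 0.0566), which did not pass the test. Among all tested probes 4.44% had all 5 BYHWD arrays above all 5 ICH arrays, and 7.13% had an unadjusted p no larger than that of Duox1. In this comparison 6.13% of all tested probes passed, and 0 of the 3 genes. The size depended on which ICH arrays were used. Against the 3 ICH arrays of slide 2 the difference was 0.60 ± 0.15 (SE; limma adjusted p = 0.00882), in a comparison where 27.7% of all tested probes passed, and against the 2 of slide 1 it was 0.29 ± 0.17 (SE; limma adjusted p = 0.335). Between the slides of ICH itself Duox1 differed by -0.31 ± 0.19 (SE, slide 2 minus slide 1; 95% interval -0.71 to 0.09; limma adjusted p = 0.260).

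The Duox1 difference was positive in all 31 alternatives, from 0.29 to 0.60, and passed in 8 of them, with limma adjusted p from 0.00882 to 0.773. The sign itself says little here. With no overlap between the groups, leaving out arrays could not turn it. Alternatives that changed only the filter, the variance model or the sham arrays kept the same estimate. The difference passed after quantile normalization (0.49, limma adjusted p = 0.0444). With a filter for probes well above background on all arrays it passed too (limma adjusted p = 0.0496). Array weights gave 0.56, which passed (limma adjusted p = 0.010). Under these settings 8.94%, 7.25% and 22.2% of the probes tested passed, in that order. It also passed without sham 4 (adjusted p = 0.0295), without ICH 2 (0.0471) and without ICH 3 (0.0366), and sham 4 entered only through the estimate of the spread. With the slide as a random block the difference was 0.46 ± 0.23 (SE) and its adjusted p 0.773, the largest of the 31. That block left 1 of the 51669 probes past the test between BYHWD and ICH and 3 between BYHWD and sham.

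**Figure D2:**
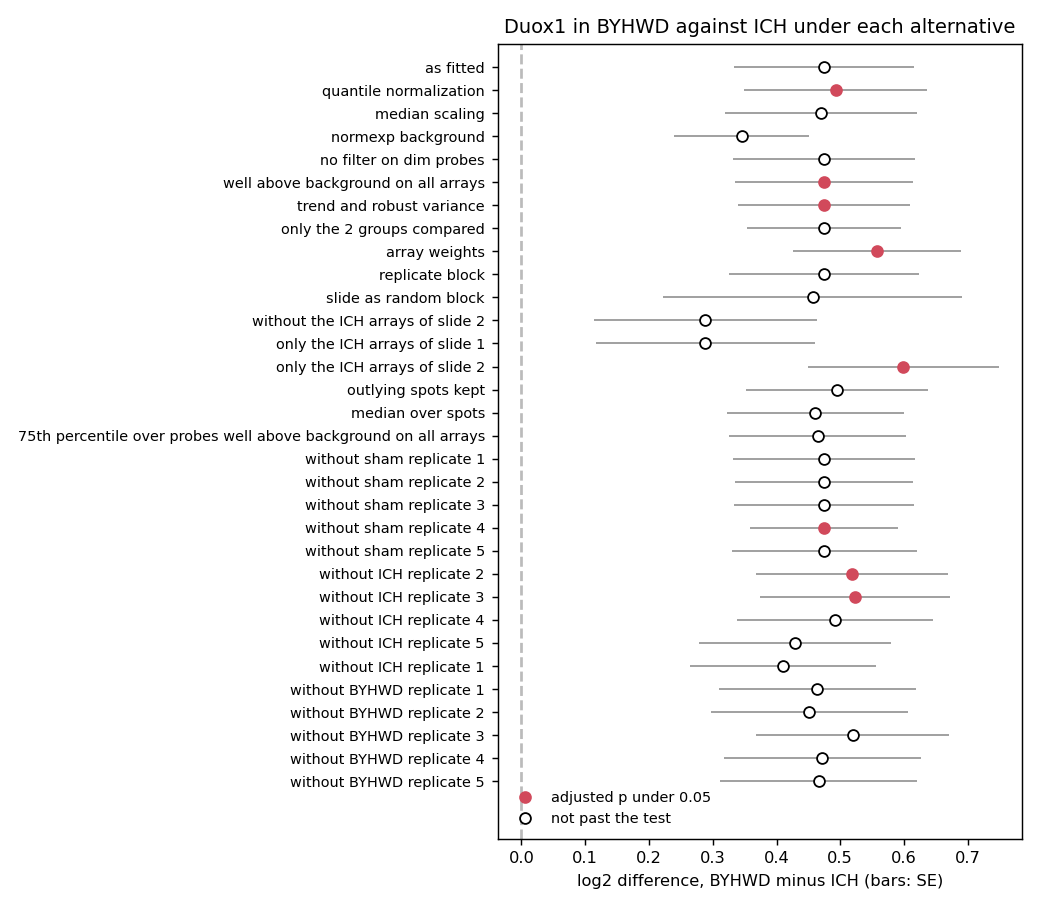
Log2 difference of Duox1 between BYHWD and ICH (x axis, points; bars are the SE) as fitted and under the 31 alternatives (y axis). Filled points passed at an adjusted p under 0.05. All points lie between 0.29 and 0.60, and 8 are filled.

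Measures of array and RNA quality differed between the same arrays. The ICH arrays of slide 2 had low 75th percentiles (261.3 to 303.1 units). They also had the largest excess of the 3' over the 5' Gapdh control probe, at 0.61 to 0.79 log2 units, where a larger excess is a sign of less intact RNA. That excess was 0.33 and 0.52 on the ICH arrays of slide 1, 0.013 to 0.41 in sham and 0.32 to 0.60 in BYHWD. The corresponding Pgk1 excess had group means of 7.51 in sham, 7.67 in ICH and 7.88 in BYHWD. It was largest where Duox1 was highest, and smallest in sham, whose Duox1 mean lay between those of the other groups. BYHWD, on slide 3, had lower percentiles and a larger mean Gapdh excess (0.48) than sham (0.23), on slide 1, and a higher Duox1 mean. Among BYHWD arrays the lowest Duox1 level (-0.67) was on BYHWD 3, which had the lowest percentile (273.8) and the largest Gapdh excess (0.60) of that group, and its lowest Pgk1 excess (7.77). The part of these measures in the Duox1 result was not tested.

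After hemorrhage alone Duox1 was 0.28 ± 0.14 log2 units lower than in sham (SE; 0.825-fold, 95% interval 0.670 to 1.01; limma adjusted p = 0.205). Without sham 4 the difference was -0.16. On slide 1, which held arrays of both groups, it was -0.09 ± 0.17 (SE; limma adjusted p = 0.994). Taking the slide 2 arrays as ICH gave -0.40 ± 0.15 (SE; limma adjusted p = 0.0473). The latter passed, as did 36.5% of all tested probes in that comparison, against 0.339% within slide 1. Against sham, BYHWD was 0.20 ± 0.14 log2 units higher (SE; 1.15-fold, 95% interval 0.931 to 1.41; limma adjusted p = 0.354), with all 5 BYHWD arrays inside the sham range. In order of level Duox1 thus ran BYHWD, sham, ICH, and no neighbours in that order differed past the test.

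Prdx2, the peroxide-removing enzyme, was the steadiest of the 3 genes. Its log2 levels were 4.97, 4.68, 5.03, 4.72 and 4.80 on sham 1 to sham 5. On ICH 1 to ICH 5 they were 4.88, 4.83, 4.89, 4.62 and 4.71, and on BYHWD 1 to BYHWD 5 they were 4.52, 4.61, 4.58, 4.85 and 4.64. The groups overlapped, although 4 of the 5 BYHWD arrays lay below the lowest sham array and 3 lay below the lowest ICH array, BYHWD 4 lying above both and BYHWD 5 above the latter alone. The share of all probes with as many arrays apart was not computed. An unadjusted p no larger than that of Prdx2 was found for 36.6% of tested probes in BYHWD against sham and 48.5% against ICH. The mean (± SD, n = 5) was 4.84 ± 0.15 for sham, 4.79 ± 0.11 for ICH and 4.64 ± 0.12 for BYHWD. The SD within groups, 0.130, was smaller than that of most probes, since 5.21% of the tested probes had a smaller one and the median was 0.253.

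Between hemorrhage and sham no Prdx2 difference was detectable. ICH minus sham was -0.05 ± 0.10 log2 units (SE; 0.963-fold, 95% interval 0.828 to 1.12; limma adjusted p = 0.765). In this comparison 5.03% of all tested probes passed, and 0 of the 3 genes. Within slide 1 the difference was 0.018 and for slide 2 it was -0.10. The direction also depended on the scaling, since after quantile normalization the difference was 0.16 (limma adjusted p = 0.392).

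Under decoction Prdx2 was 0.15 ± 0.10 log2 units lower than in untreated hemorrhage (SE; 0.904-fold, 95% interval 0.777 to 1.05; limma adjusted p = 0.357) and 0.20 ± 0.10 lower than in sham (SE; 0.870-fold, 95% interval 0.748 to 1.01; limma adjusted p = 0.187). Neither passed the test, and 17.3% of all tested probes passed against sham, with 0 of the 3 genes. Those probes were 6543 higher and 2387 lower, a split that became 4934 and 3411 after quantile normalization and 5058 and 4178 after median scaling. For Prdx2 the difference from sham was -0.08 after quantile normalization and -0.31 with normexp background correction, where it passed (limma adjusted p = 0.0209), as did 39.3% of all tested probes. With normexp the median difference over all tested probes was itself 0.16 in this comparison, against 0.023 as fitted. Both differences use the same BYHWD arrays and are not independent. The order of level was sham, ICH, BYHWD, with no neighbours apart past the test.

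**Figure D3:**
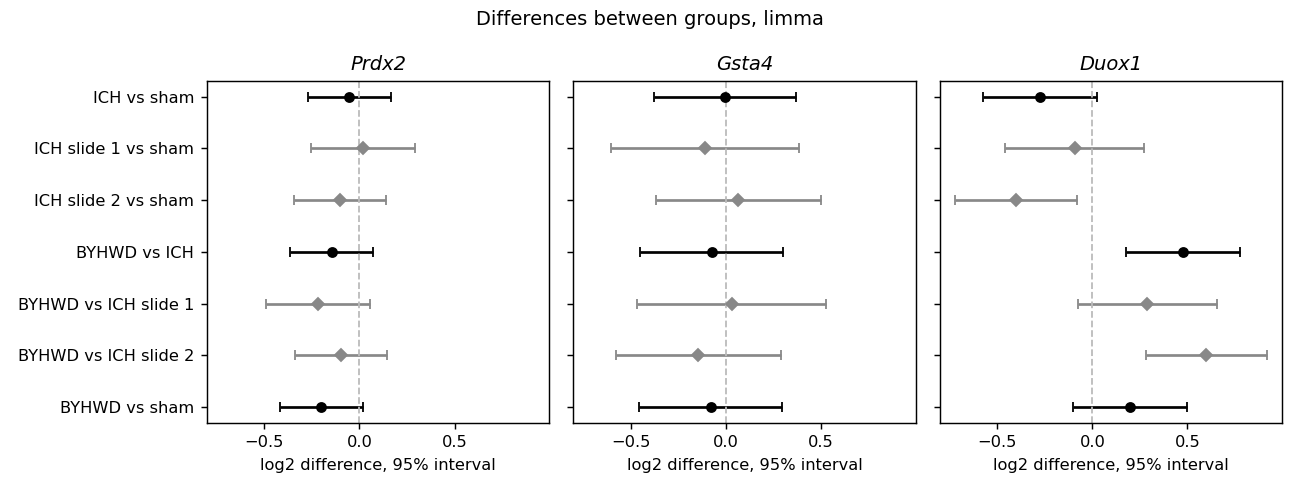
Log2 differences (x axis) with 95% intervals from limma for Prdx2, Gsta4 and Duox1 in the 3 comparisons (black circles) and with the ICH arrays of each slide taken apart (grey diamonds). Among black circles the interval excludes 0 only for Duox1 in BYHWD against ICH, whose adjusted p was 0.0566. Intervals are not adjusted for the number of probes.

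Gsta4, the transferase for lipid aldehydes, was level between groups and varied within them. Its log2 levels were -0.10, -0.21, 0.71, 0.03 and -0.23 on sham 1 to sham 5. On ICH 1 to ICH 5 they were 0.06, 0.09, -0.23, -0.09 and 0.34, and on BYHWD 1 to BYHWD 5 they were 0.19, -0.12, -0.10, -0.37 and 0.20. The 3 ranges overlapped almost fully, and sham 3 stood above every other array. The mean (± SD, n = 5) was 0.04 ± 0.39 for sham, 0.03 ± 0.21 for ICH and -0.04 ± 0.24 for BYHWD. Without sham 3 the sham mean was -0.13 ± 0.12 (SD, n = 4). The high value was no single spot: the 10 spots of Gsta4 on sham 3 read 794.2 to 879.0 units, while the highest spot on any other sham array read 565.5.

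No Gsta4 comparison came near the threshold. The log2 difference was -0.0056 ± 0.18 for ICH against sham (SE; 0.996-fold, 95% interval 0.768 to 1.29; limma adjusted p = 0.987). For BYHWD against ICH it was -0.08 ± 0.18 (SE; 0.949-fold, 95% interval 0.732 to 1.23; limma adjusted p = 0.801). BYHWD against sham gave -0.08 ± 0.18 (SE; 0.945-fold, 95% interval 0.729 to 1.23; limma adjusted p = 0.783). The signs rested on single arrays. Without sham 3, ICH was 0.16 and BYHWD 0.087 above sham (limma adjusted p = 0.459 and 0.708). ICH against sham also turned without ICH 3 (0.061) or ICH 4 (0.025), BYHWD against sham without BYHWD 4 (0.00049), and BYHWD against ICH without ICH 5 or BYHWD 4. For this gene the order of the groups has no meaning beyond the spread.

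Differences between 2 of the genes on the same array do not depend on a scaling that subtracts 1 value per array, as here, though quantile normalization would move them. They show only unequal change. Duox1 minus Prdx2 was -5.33 to -4.98 log2 units on the BYHWD arrays and -6.10 to -5.52 on the ICH arrays, without overlap. Of the 51668 tested probes other than Prdx2, each taken minus Prdx2 in the same way, 7.22% had all 5 BYHWD arrays above all 5 ICH arrays. Relative to Prdx2, Duox1 was thus 1.54-fold higher in BYHWD than in ICH on average. The ICH arrays of slide 1 (-5.66 and -5.62) lay inside the range of those of slide 2 (-6.10 to -5.52), in contrast to the Duox1 level alone. Sham ranged from -5.91 to -4.95 and overlapped both groups. Gsta4 minus Prdx2 overlapped between all groups, with a mean (± SD, n = 5) of -4.80 ± 0.31 for sham, -4.75 ± 0.27 for ICH and -4.68 ± 0.34 for BYHWD. Duox1 minus Gsta4 ranged from -0.66 to -0.12 on the BYHWD arrays and from -1.49 to -0.54 on the ICH arrays, with overlap.

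**Figure D4:**
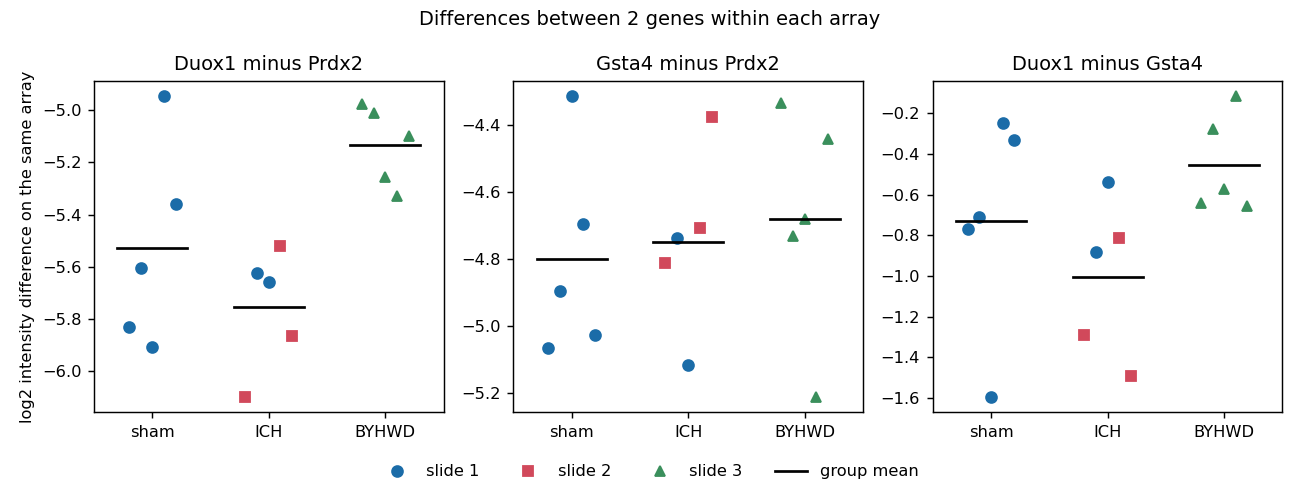
Log2 intensity difference between 2 genes on the same array (y axis) for each of the 15 arrays, by group, with slides marked by colour and shape and group means as lines. Duox1 minus Prdx2 lies at -5.33 to -4.98 in BYHWD and at -6.10 to -5.52 in ICH. Neither of the other pairs separates BYHWD from ICH.

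The 3 genes were also compared with each other. Over the 15 arrays, which share slides and scaling, Pearson's r was 0.17 between Prdx2 and Gsta4, -0.38 between Prdx2 and Duox1 and -0.25 between Gsta4 and Duox1. After each group's mean was removed these values were 0.11, -0.21 and -0.24. Over the 7 arrays of slide 1 alone they were 0.59, -0.46 and -0.15. Sham 3, on that slide, had the highest level of all 15 arrays for both Prdx2 (5.03) and Gsta4 (0.71). The value of 0.59 without sham 3 was not computed, so it is not read as a likeness of the 2 genes.

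Among the other 44 named genes, those most like Prdx2 over the 15 arrays were Rps4l, a ribosomal protein gene (r = 0.72), Ppara, which encodes a fatty-acid-sensing nuclear receptor (0.67), and Trp53rka, a kinase gene (0.58). With group means removed these were 0.74, 0.50 and 0.49. Gsta4 was most like Taf1a, a subunit of an RNA polymerase I factor (0.70), Cav2, a caveolin (0.57), and Bambi, a decoy receptor of TGF-beta signalling (0.56), and these values were 0.71, 0.65 and 0.58 without group means. For Duox1 the nearest were the olfactory receptor gene Olfr166 (0.79), the homeobox gene Lhx1 (0.76) and the olfactory receptor gene Olfr1307 (0.54). Their values without group means were 0.66, 0.60 and 0.53. Within the 7 arrays of slide 1 the first gene of each trio stood at 0.81 (Rps4l with Prdx2), 0.71 (Taf1a with Gsta4) and 0.69 (Olfr166 with Duox1). None of them was the most alike there, where the highest r was 0.92 with Prdx2, 0.94 with Gsta4 and 0.90 with Duox1. Duox1, Olfr166, Lhx1 and Olfr1307 all had their lowest mean in ICH. The r by which these genes were chosen includes the group means, so this is no separate likeness.

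The rest of the pathway could not be read by name. Of 143 genes in 8 lists of peroxiredoxins, glutathione enzymes, dismutases, NADPH oxidases, targets of the Nrf2 regulator, aldehyde detoxification and oxidative repair, 3 had a probe with a matched accession, and these were Prdx2, Gsta4 and Duox1. The partners that would help to read them, such as the Duox maturation factors, sulfiredoxin and heme oxygenase, were not analysed here. The same holds for cell types. None of the 14 markers of striatal neurons or of the 9 of red blood cells had a named probe, so neither the dissection nor remaining blood, which is rich in Prdx2, could be checked. Mbp, 1 of 9 oligodendrocyte markers, ranged from 7.79 to 8.20 in sham, from 8.03 to 8.39 in ICH and from 8.04 to 8.45 in BYHWD. The 2 lymphocyte markers of 9 with a probe were Mzb1, at -3.73 to -3.44 in sham, -3.40 to -2.42 in ICH and -3.19 to -2.80 in BYHWD, and Il2, at -5.15 to -4.80, -4.87 to -2.96 and -4.98 to -4.45. Il2 was highest in ICH on average, where Duox1 was lowest. It was dim, with sham and BYHWD levels not far above the dimmest spots counted as well above background. Mzb1 had close means in ICH (-2.89) and BYHWD (-2.94), the groups with the lowest and highest Duox1. The part of Il2 and Mzb1 in the result was not tested. In tissue RNA, fewer cells of a type and less RNA per cell cannot be told apart. Probe sequences were not used here, so whether relatives of these genes add to the signals was not tested.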

How the data were processed

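Cy3-labelled RNA from striatum was hybridised to 1 array per sample, per the labels' protocols. Per the file headers, the deposited intensity of a spot is the processed signal of Feature Extraction 11.0.1.1, with background corrected within each array and no scaling between arrays. The authors' deposited log2 table (34099 probes) holds no value for the 3 genes and served only for counts of probes. How it was processed is not stated in the sources used here.

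Outlying spots (25 to 93 per array) were left out. The log2 values of replicate spots were averaged, and each array's 75th percentile over its noncontrol spots was subtracted. Of 60823 probes, 132 spike-in, custom or negative probes and 169 with a missing value were left out, and those well above background on at least 5 arrays were tested. Accessions of 50 probes were matched to RefSeq symbols (GRCm38.p6), of which 46 matched. The file headers name an older genome build, so no coordinates are given. The members and lists were chosen with earlier results of these data known.

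The 3 comparisons were fitted together on 15 arrays with limma 3.58.1 (R 4.3.3, 2-sided), and the ICH arrays of each slide were also taken as separate groups. The limma step was tested on simulated data with independent noise and no slide effect, so that test does not cover the slides here. Slides were read from scan identifiers. Named genes were the 3 members and, for each, the 3 named genes with the highest r. Alternatives covered scaling, background (normexp with an offset of 50 on the median signal, since the files hold no mean signal), filters, variance, weights, blocks, and each array left out. Keeping outlying spots, taking medians over spots and a percentile over probes bright on all arrays were chosen after seeing the data.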

Additional observations from a re-analysis of the deposited data

Results flagged for a closer look

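Among 9 sets of 5 values (3 genes in 3 groups) a single one contained an array standing apart, and about 1 in 20 such sets would by chance. Gsta4 read 0.71 on sham 3, and the remaining sham arrays read -0.23 to 0.03. The gap to the next array was 0.728 of the whole range. The 10 spots behind this value had a log2 SD of 0.041.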

How the results depend on the processing

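None of the 9 differences passed as fitted. Duox1 kept its direction in all 3 comparisons under every alternative run, and so did Prdx2 in BYHWD against ICH and against sham. For Duox1 in BYHWD against ICH, whose arrays did not overlap, leaving out arrays could not have turned it. Duox1 in BYHWD against ICH passed after quantile normalization (0.49), with the filter for all arrays (0.47), with a variance trend (0.47), with array weights (0.56) and against the ICH arrays of slide 2 (0.60). Leaving out 1 array moved it from 0.41 to 0.52, and without ICH 2, ICH 3 or sham 4 it passed. In the fits where it passed, the share of all probes tested that passed ran from 6.90% (variance trend) to 27.7% (slide 2). Duox1 in ICH against sham passed for slide 2 (-0.40), and Prdx2 in BYHWD against sham passed with normexp (-0.31; -0.48 relative to the median of all probes, which was 0.16 there). That median was 0.18 with normexp for ICH against sham. Prdx2 in ICH against sham changed sign after quantile normalization (0.16) and on slide 1 alone, with the slide as a fixed block or without the ICH arrays of slide 2 (0.018 each).

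Gsta4 changed sign often. ICH against sham turned with array weights (0.17), on slide 2 (0.064), with outlying spots kept (0.017), with medians over spots (0.000295) and with a percentile over probes bright on all arrays (0.0067). Leaving out 1 array moved it from -0.081 to 0.16, turning it without sham 3, ICH 3 or ICH 4. BYHWD against ICH turned with the ICH arrays of slide 1, whether or not slide 2 stayed in the fit (0.030 each), and moved from -0.14 to 0.0061 with single arrays left out, turning without ICH 5 or BYHWD 4. BYHWD against sham turned with array weights (0.056), and moved from -0.15 to 0.087, turning without sham 3 or BYHWD 4. For these small values the cause was not tested.

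The percentage of probes past the test, 5.03 for ICH against sham, 6.13 for BYHWD against ICH and 17.3 for BYHWD against sham as fitted, moved widely. At an adjusted p under 0.01 the 3 percentages were 0.567, 0.412 and 5.44, with normexp 37.6, 2.54 and 39.3, with array weights 29.1, 22.2 and 30.1, and under a random slide block 0.697, 0.0019 and 0.0058. The deposited table gave 0.478 for ICH and 14.5 for BYHWD, each against sham (163 and 4955 probes, fewer being tested). ICH against sham gave 3.27 with median scaling, 1.19 with these groups alone, 0.339 on slide 1 or with a fixed slide block, 0.050 without slide 2 and 36.5 with it alone. BYHWD against ICH gave 3.31 with these groups alone and 27.7 against slide 2. With single arrays left out the percentages ran from 0.852 to 20.2, from 1.74 to 12.2 and from 10.6 to 18.4. The first moved by over 1.5 times whichever sham or ICH array was left out, the second without sham 5, any BYHWD array or any ICH array but ICH 2, the third without BYHWD 2.

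Replicate numbers did not pair the arrays: 0 of 15 same-numbered pairs had deviations correlated above 0.1, and 0 of 15 arrays were most like their own number. With a replicate block the percentages were 2.24, 1.15 and 11.8, and none of the 3 genes passed.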
